A study of Mus musculus with 6 samples.

Results

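Immediate early genes other than the AP-1 subunits were described in the skin of mice with a kinase-domain deletion of ATR and of mice with intact ATR. The 10 genes were chosen by name: Egr1, Egr2, Egr3, Nr4a1, Ier2, Atf3, Zfp36, Dusp1, Klf4 and Cyr61. All 10 were among the 14484 genes with counts. Immediate early genes are transcribed within minutes of a stimulus, without new protein synthesis, by factors that already sit at their promoters: SRF with its ETS-type partners, and CREB. They respond to growth factors, MAP kinase signalling, wounding and handling of tissue, and their short-lived transcripts are removed quickly. In skin they are known from keratinocyte growth, wound repair and the early hair cycle.

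The ATR mD/mD group had 3 libraries from skin labelled ATR fl/fl, Braf CA/+ and Cre +, with a portion of the kinase domain of ATR removed. The ATR WT group had 3 libraries from skin labelled ATR +/+, Braf CA/+ and Cre +. Both groups therefore carried the activated Braf allele and Cre in mice of C57BL/6-129J background, and nevi is the word for the samples in the design text. No source used here names the promoter that drives Cre, the age of the mice or separate mice within a group. A p-value therefore reflects how these samples spread, which may be partly technical.

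The libraries held 34723600 to 38565590 gene counts in ATR mD/mD and 39297160 to 46847751 in ATR WT. Melanocyte markers were measured in both groups (9 of 9 listed genes). Their summed levels were 134 to 865 CPM (counts scaled to an equal library total) in ATR mD/mD and 201 to 876 CPM in ATR WT. All 9 were lower in ATR mD/mD by the fit, with a median log2 fold change of -0.58, and 48% of all genes were lower. Among the 9, 0 passed an adjusted p of 0.05 (edgeR quasi-likelihood). Sox10, also a Schwann cell marker, had -0.83 (SE 0.183) with no overlap between groups. Atr was at 0.03 (SE 0.172) and Braf at -0.15 (SE 0.304) in log2 fold change of ATR mD/mD over ATR WT (edgeR quasi-likelihood, adjusted p = 0.9999 for each), but a count over the whole gene does not check a partial deletion. The mean level of 33 hair follicle genes divided the libraries across genotypes: it lay at -0.70 and 2.05 log2 CPM in ATR mD/mD 1 and 2 and at 1.54 in ATR WT 1, against 7.27 in ATR mD/mD 3 and 7.05 and 7.33 in ATR WT 2 and 3. The first 3 are called low hair libraries here and the other 3 high hair libraries. The median log2 difference of the melanocyte markers, ATR mD/mD minus ATR WT, was -0.70 among low hair libraries and 0.26 among high hair libraries. Summed skeletal muscle markers (10 of 10 measured) ran the other way, with 25035, 25369 and 8060 CPM in ATR mD/mD 1, 2 and 3 and 39075, 15073 and 9446 CPM in ATR WT 1, 2 and 3. Xist, which is expressed in females, also split the libraries across genotypes: it had 18050, 40 and 23 counts in ATR mD/mD 1, 2 and 3 and 37, 23005 and 29207 counts in ATR WT 1, 2 and 3. The libraries of a group therefore did not all come from the same mouse. Whether each came from a separate mouse is not known.

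RefSeq promoter windows (GRCm38.p6, 250 bases before to 50 after the start) were at hand for 7 of the 10 genes: Egr2, Nr4a1, Atf3, Zfp36, Dusp1, Klf4 and Cyr61 (listed as Ccn1). Entries for Egr1, Egr3 and Ier2 were not used here. The 250 bases before the start are printed for the genes with a CArG box, the SRF element (Zfp36, Egr2), and for those with the most copies of TGACG, the core of the CREB element (Dusp1, Nr4a1), because SRF and CREB are the factors known to start these genes; capitals mark CArG boxes and TGACG on either strand. The Zfp36 window lies at chr7:28379229-28379478 on the minus strand, Egr2 at chr10:67537619-67537868 on the plus strand, Dusp1 at chr17:26508473-26508722 on the minus strand and Nr4a1 at chr15:101266596-101266845 on the plus strand.
Zfp36 promoter: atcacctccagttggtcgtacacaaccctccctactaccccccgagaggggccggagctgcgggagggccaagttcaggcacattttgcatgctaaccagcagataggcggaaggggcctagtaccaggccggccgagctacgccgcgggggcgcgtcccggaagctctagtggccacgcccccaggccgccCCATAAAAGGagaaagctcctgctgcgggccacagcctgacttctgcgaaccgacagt
Egr2 promoter: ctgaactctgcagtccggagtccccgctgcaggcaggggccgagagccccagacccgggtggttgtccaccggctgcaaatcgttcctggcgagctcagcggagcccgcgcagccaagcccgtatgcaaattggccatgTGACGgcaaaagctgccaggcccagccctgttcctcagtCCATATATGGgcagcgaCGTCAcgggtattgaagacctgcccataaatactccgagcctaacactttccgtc
Dusp1 promoter: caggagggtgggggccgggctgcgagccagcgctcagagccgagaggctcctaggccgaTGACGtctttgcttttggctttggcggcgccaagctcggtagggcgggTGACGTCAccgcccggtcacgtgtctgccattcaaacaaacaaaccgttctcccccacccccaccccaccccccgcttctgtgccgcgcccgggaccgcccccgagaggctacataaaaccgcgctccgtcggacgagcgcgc
Nr4a1 promoter: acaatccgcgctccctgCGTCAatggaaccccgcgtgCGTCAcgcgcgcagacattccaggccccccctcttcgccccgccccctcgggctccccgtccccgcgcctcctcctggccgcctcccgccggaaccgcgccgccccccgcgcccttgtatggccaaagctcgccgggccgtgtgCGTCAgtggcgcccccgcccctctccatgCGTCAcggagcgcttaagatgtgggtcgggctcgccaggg
TGACG was found in 6 of these 7 genes, and 23% of all 27025 genes with RefSeq windows of this length hold it in at least 1 window. Nr4a1 had 4 copies, the nearest starting 40 bases before the start. Dusp1 had the full CREB palindrome TGACGTCA, 143 bases before the start, which contains TGACG on both strands and occurs in 2.03% of genes. The CArG box was found in Zfp36, 58 bases before the start, and in Egr2, 72 bases before the start, against 1.81% of genes. Egr2 has 5 listed starts, so its letters had more chances to be found than those of a gene with 1 start. The SP1 letters GGGCGG were found in 7 of 7 genes and in 38.2% of all genes. The EGR letters GCGGGGGCG were found in Nr4a1, Zfp36 and Klf4 and in 3.31% of all genes, and GCGTGGGCG in none of the 7 and in 0.707% of all genes. The AP-1 letters TGANTCA were found in none of the 7 and in 8.97% of all genes. All motifs were searched on both strands, and a match is a description of the letters only.

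In the GENCODE M21 annotation (mm10) the main transcript of all 10 genes spanned less than the 21862-base median of 13970 other genes. The 10 had a median of 4741 bases and a range of 1522 for Ier2, which has 1 exon, to 20527 for Nr4a1. Gene positions given below are those of the whole annotated gene. For Dusp1 and Atf3 the gene is much longer than the main transcript, which spans 2930 and 13045 bases. The pentamer ATTTA, the core of AU-rich elements that speed transcript decay, was present in the 3′ UTR of 9 of 10 genes, all but Ier2, and in 69.1% of 13285 other genes. Its density had a median of 2.58 per kilobase in the 10 genes and 1.31 in the other genes, with 8 of the 10 above that value. It was highest in Cyr61 (7.22), Dusp1 (5.77) and Nr4a1 (5.49) and lowest in Ier2 (0) and Klf4 (1.02). Sites that hold TATTTAT or the longer TTATTTATT (in capitals), the letters known to bind the ZFP36 protein, are printed from the 4 genes that have them. They lie on chromosome 7 for Zfp36 itself, 17 for Dusp1, 3 for Cyr61 and 1 for Atf3.
Zfp36 site: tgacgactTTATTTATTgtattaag
Dusp1 site: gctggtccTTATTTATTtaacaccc
Cyr61 site: atgttttttTATTTATcaaagtgta
Atf3 site: aatattactTATTTATcccagtatt
TATTTAT was found in these 4 of the 10 genes and in 29.0% of other genes, and TTATTTATT in Zfp36 and Dusp1 and in 7.53% of other genes.

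Per length of exon, all 10 genes were well expressed in these skins. In ATR WT the order of mean level was Egr1, Klf4, Ier2, Dusp1, Cyr61, Zfp36, Atf3, Nr4a1, Egr2 and Egr3. Egr1 headed that order at 162.9 ± 51.4 RPKM (CPM per kilobase of exon), close to Klf4 at 155.5 ± 46.0 RPKM, and Egr3 closed it at 25.7 ± 3.63 RPKM (SD, n = 3). Neighbours in the order differed by less than the larger of their SDs, except Egr2 (36.6 ± 10.1 RPKM) and Egr3. In ATR mD/mD, Klf4 headed the order at 120.3 ± 24.0 RPKM, with Ier2 at 66.9 ± 20.2 and Egr1 at 60.1 ± 3.87 RPKM (SD, n = 3), and Nr4a1 and Atf3 closed it at 19.6 ± 2.92 and 19.9 ± 7.90 RPKM. Summed over the 10 genes, the level was 1536, 1538 and 1379.8 CPM in ATR mD/mD 1, 2 and 3, against 4266, 2590.4 and 2203 CPM in ATR WT 1, 2 and 3. The 3 ATR mD/mD sums lay close together and below every ATR WT sum.

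**Figure D1:**
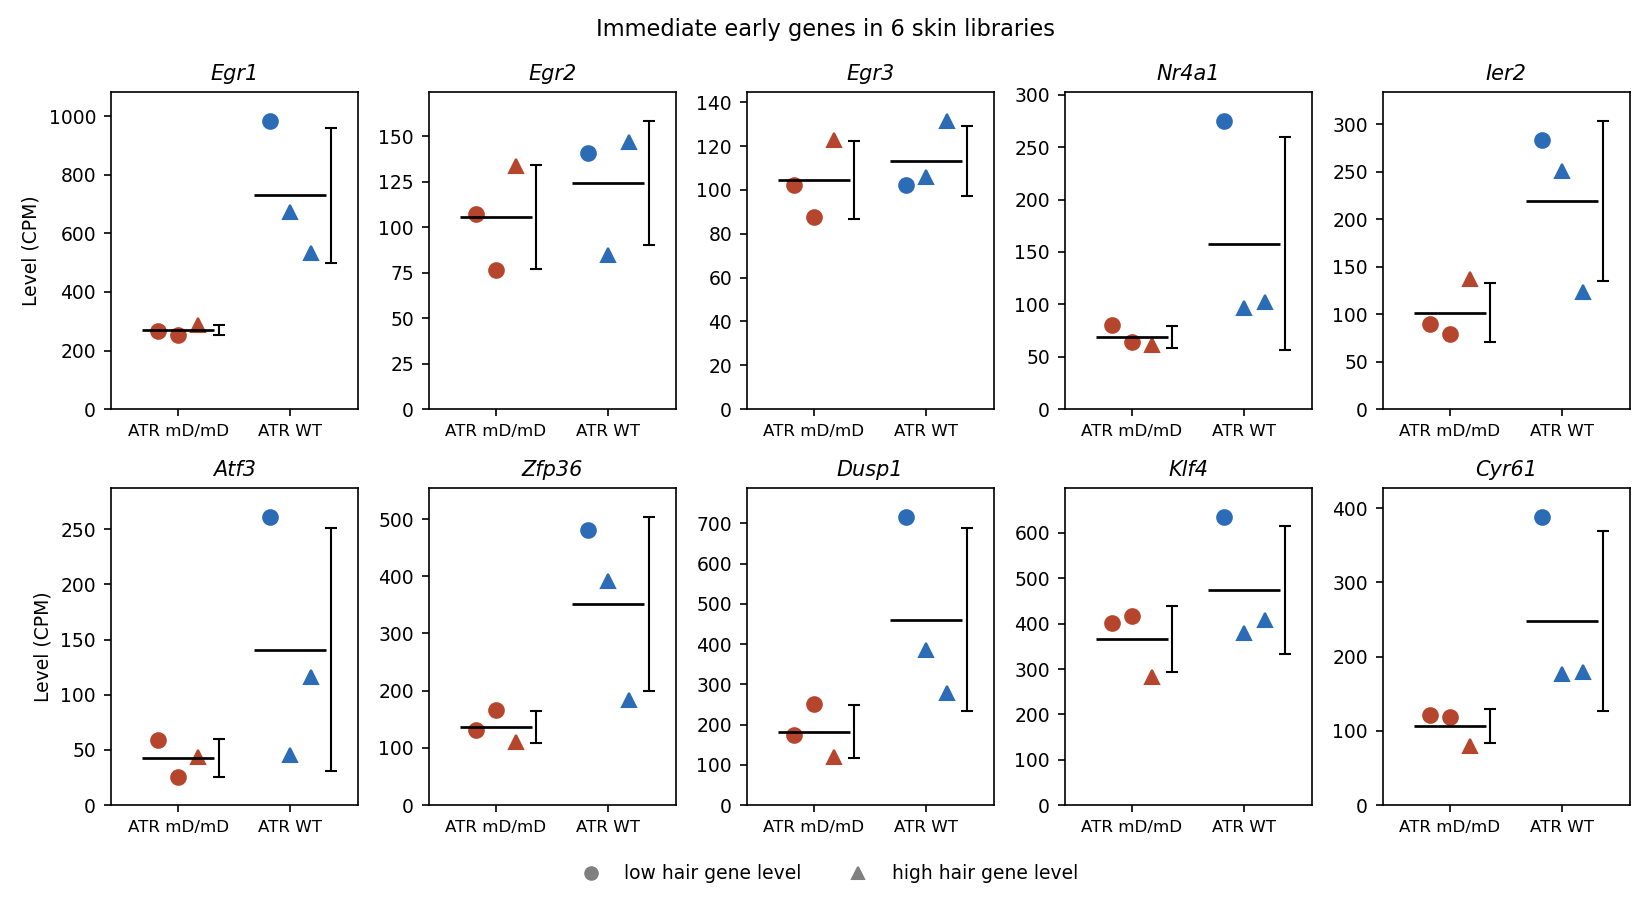
Level in CPM (linear axis from 0) of each of the 10 genes in the 3 ATR mD/mD and 3 ATR WT libraries. Horizontal lines are group means, bars beside them the SD (n = 3), circles low hair and triangles high hair libraries. Egr1, Nr4a1, Zfp36, Dusp1 and Cyr61 show no overlap between groups, and ATR WT 1 is the highest library in 8 of 10 panels.

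Of the 10 genes, 7 were 2.15 to 3.28 times lower in ATR mD/mD by the fitted fold, and Klf4, Egr2 and Egr3 were 1.08 to 1.29 times lower. None of the 10 passed an adjusted p of 0.05 (edgeR quasi-likelihood over 14484 genes), where 0.0483% of all genes were called, each of them lower in ATR mD/mD. At an unadjusted p of 0.05, 7 of the 10 were lower, against 1.09% of all genes. The 10 genes were chosen with this contrast known, so these counts describe them and support nothing. In 5 of the 10, every ATR mD/mD library lay below every ATR WT library, and the same was true of 2.58% of all genes. The median log2 fold change of the 10 was -1.21, and that of all genes was 0.01. In bulk skin, fewer cells that use a gene and less RNA per cell cannot be told apart. Summed fibroblast markers (7 of 7 measured, none at 0) were at 7140.1, 16236 and 16293 CPM in ATR mD/mD 1, 2 and 3 and 13788 to 17631 CPM in ATR WT. Macrophage markers (8 of 8, none at 0) were at 692 to 1127 CPM in ATR mD/mD and 593 to 1216 CPM in ATR WT. Basal keratinocyte markers (7 of 7, none at 0) were at 13036.5 to 14271 CPM in ATR mD/mD and 9988 to 14613 CPM in ATR WT. The part of these cells, or of melanocytes, in the result was not tested.

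Among the transcription factors, Egr1 had the least spread in ATR mD/mD. Egr1 encodes a zinc finger factor that is switched on by ERK signalling and serum, and lies on chromosome 18 from 34859823 to 34864984 (plus strand). It had 268, 253 and 288 CPM in ATR mD/mD 1, 2 and 3, against 984, 672.5 and 534 CPM in ATR WT 1, 2 and 3. The groups did not overlap, and the lowest ATR WT library was 1.86 times the highest ATR mD/mD library. The coefficient of variation was 6.43% in ATR mD/mD and 31.6% in ATR WT. The fitted log2 fold change was -1.44 (SE 0.25; edgeR adjusted p = 0.645). Over all genes, DESeq2 gave an adjusted p of 2.77e-05 and edgeR's exact test 0.00963, with 0.228% and 0.159% of all genes called lower by those tests. The authors' deposited table gives Egr1 a log2 fold change of -1.44 and an adjusted p of 0.0833, and the next lowest of the 10 there is 0.524 for Zfp36.

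Egr2 and Egr3, which encode close relatives of EGR1 with the same kind of DNA-binding zinc fingers, had overlapping groups. Egr2 is known from Schwann cell myelination and Egr3 from nerve and muscle spindle development. Egr2 (chromosome 10, 67535475 to 67542188, plus strand) had 107, 76.5 and 134 CPM in ATR mD/mD 1, 2 and 3, against 141, 84.9 and 147 CPM in ATR WT 1, 2 and 3. Its lowest ATR WT library lay below the levels of ATR mD/mD 1 and 3. The fit gave a log2 fold change of -0.23 (SE 0.285; edgeR adjusted p = 0.9999). Egr3 (chromosome 14, 70077203 to 70082614, plus strand) had 102, 87.8 and 123 CPM in ATR mD/mD, against 102, 106 and 131 CPM in ATR WT, in the same order of replicates. Both groups were highest in a high hair library. Its log2 fold change was -0.12 (SE 0.177; edgeR adjusted p = 0.9999). The fourth relative, Egr4, was not analysed here.

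Count ratios within a library need no scaling between libraries and are given as a description with no test, since the pairs were chosen with their values known. Egr1 over Egr2 was 2.50, 3.31 and 2.15 in ATR mD/mD 1, 2 and 3, against 6.98, 7.92 and 3.64 in ATR WT 1, 2 and 3. Egr1 over Egr3 was 2.62, 2.88 and 2.34 in ATR mD/mD, against 9.64, 6.35 and 4.06 in ATR WT. Every ATR mD/mD ratio was below every ATR WT ratio in both pairs. Egr2 over Egr3 was 1.05, 0.872 and 1.09 in ATR mD/mD, against 1.38, 0.801 and 1.12 in ATR WT, with overlap between groups.

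Nr4a1 encodes an orphan nuclear receptor, also known as NUR77, and lies on chromosome 15 from 101254269 to 101274795 (plus strand). It had 80.4, 63.9 and 61.7 CPM in ATR mD/mD 1, 2 and 3, against 275, 96.1 and 102 CPM in ATR WT 1, 2 and 3. The groups did not overlap, but ATR WT 1 stood far above every other library. The fitted log2 fold change was -1.20 (SE 0.43; edgeR adjusted p = 0.9999), and -0.52 without ATR WT 1. The related receptors Nr4a2 and Nr4a3 were at 3.54 ± 1.34 and 4.12 ± 2.16 CPM in ATR mD/mD and at 5.46 ± 2.48 and 6.05 ± 4.16 CPM in ATR WT (SD, n = 3), with overlapping groups and fold changes on the log2 scale of -0.62 (SE 0.437) and -0.56 (SE 0.579).

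Atf3 had the largest fold change of the 10 and also the largest spread. It encodes a stress-induced bZIP repressor and lies on chromosome 1 from 191170296 to 191218039 (minus strand). It had 59.3, 25.3 and 44.1 CPM in ATR mD/mD 1, 2 and 3, against 261, 45.1 and 116 CPM in ATR WT 1, 2 and 3. ATR WT 2 lay below ATR mD/mD 1, so the groups overlapped. The fit gave a log2 fold change of -1.72 (SE 0.641; edgeR adjusted p = 0.9999), -0.90 without ATR WT 1 and -2.14 without ATR WT 2. Of 10 other stress response genes, 0 passed the test (edgeR quasi-likelihood) and 6 were lower; the list's median log2 fold change was -0.16. Ppp1r15a, the stress-induced phosphatase subunit GADD34, had -0.45 (SE 0.142), and Chac1 had -0.75 (SE 0.329), while Ddit4 had 0.46 (SE 0.351).

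Ier2 and Klf4 complete the nuclear regulators. Ier2, a single-exon gene for a small nuclear protein (chromosome 8, 84661331 to 84662852, minus strand), had 90.0, 78.8 and 137 CPM in ATR mD/mD 1, 2 and 3, against 283, 251 and 123 CPM in ATR WT 1, 2 and 3. ATR mD/mD 3 lay above ATR WT 3, the pair of libraries with the highest hair level in each genotype. Its log2 fold change was -1.11 (SE 0.359; edgeR adjusted p = 0.9999). Klf4, a zinc finger factor needed for the epidermal barrier (chromosome 4, 55527143 to 55532466, minus strand), had 401, 417 and 283 CPM in ATR mD/mD, against 635, 380.1 and 407 CPM in ATR WT, in the order of replicates. ATR WT 2 and 3 lay within the ATR mD/mD range. The fitted log2 fold change was -0.37 (SE 0.263; edgeR adjusted p = 0.9999) and was -0.09 without ATR WT 1. Of 12 other measured Klf genes, 0 passed the test (edgeR quasi-likelihood) and 6 were lower and 6 higher; their median log2 fold change was 0.01. Klf2, Klf6 and Klf12 had -0.62 (SE 0.501), -0.16 (SE 0.241) and 0.39 (SE 0.376).

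The feedback regulators had similar fold changes. Dusp1 encodes a phosphatase that switches off p38, JNK and ERK in the nucleus, and Zfp36 encodes tristetraprolin, which binds AU-rich elements and promotes decay of the bound transcripts. Dusp1 (chromosome 17, 26505590 to 26562128, minus strand) had 175, 251 and 120.2 CPM in ATR mD/mD 1, 2 and 3, against 716, 386 and 279 CPM in ATR WT 1, 2 and 3. Zfp36 (chromosome 7, 28376784 to 28380253, minus strand) had 132, 166 and 110.4 CPM in ATR mD/mD, against 480.0, 391 and 184 CPM in ATR WT, in the order of replicates. In both genes the groups did not overlap, and the lowest ATR WT library was only 1.11 times the highest ATR mD/mD library. In both, ATR WT 1 was highest and ATR mD/mD 3 lowest. The log2 fold changes were -1.34 (SE 0.421; edgeR adjusted p = 0.9999) for Dusp1 and -1.37 (SE 0.367; edgeR adjusted p = 0.9999) for Zfp36. Other genes overlap both loci in the annotation, but none shares a base with the exons of the main transcripts.

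Relatives of the feedback genes had smaller differences. Of 9 other MAP kinase phosphatases of the dual specificity family, 0 passed the test (edgeR quasi-likelihood) and 8 were lower; the list's median log2 fold change was -0.51. Dusp6, which acts on ERK, had 63.6, 56.5 and 102 CPM in ATR mD/mD 1, 2 and 3, against 125, 124 and 142 CPM in ATR WT 1, 2 and 3, with no overlap. The fit gave a log2 fold change of -0.82 (SE 0.24), and Dusp7 and Dusp8 had -0.51 (SE 0.182) and -0.31 (SE 0.166). Zfp36l1 was at -0.29 (SE 0.116) and Zfp36l2 at -0.35 (SE 0.195), each with no overlap between groups. Of 10 measured transcripts that ZFP36 is known to destabilise, 0 passed the test (edgeR quasi-likelihood) and 10 were lower, with a median of -0.74. DESeq2 called 1 of these 10, and 0.269% of all genes. Ier3, Ptgs2, Plk3, Myc and Vegfa are also on other lists described here. The chemokine gene Cxcl1 was at 2.09 ± 0.701 CPM in ATR mD/mD and 6.01 ± 1.60 CPM in ATR WT (SD, n = 3), or -1.52 (SE 0.357) as log2 fold change, and Il1b had -0.89 (SE 0.421).

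Cyr61, the secreted member of the 10, encodes a matrix protein of the CCN family that binds integrins and is a target of SRF and YAP. It lies on chromosome 3 from 145646976 to 145649981 (minus strand). It had 121, 119 and 79.5 CPM in ATR mD/mD 1, 2 and 3, against 388, 177 and 179 CPM in ATR WT 1, 2 and 3. The groups did not overlap, and the lowest ATR WT library was 1.47 times the highest ATR mD/mD library. Its log2 fold change was -1.22 (SE 0.361; edgeR adjusted p = 0.9999) and -0.73 without ATR WT 1. The relative Ctgf, also a target of YAP, was not lower in mean level, with 160.8 ± 53.8 CPM in ATR mD/mD and 143.1 ± 37.3 CPM in ATR WT (SD, n = 3), or 0.17 (SE 0.3) as log2 fold change. Nov and Wisp1 had 0.44 (SE 0.64) and -0.56 (SE 0.463). Of 20 other SRF-MRTF and YAP targets, 0 passed the test (edgeR quasi-likelihood), 10 were lower and 10 higher, and the median was 0.01. Among them Actb was at -0.25 (SE 0.192) and Acta2 at 0.27 (SE 0.208).

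Of 49 other immediate early genes measured, 0 passed the test (edgeR quasi-likelihood), 48 were lower and 1, the clock gene Per1, was higher with 0.26 (SE 0.177), and the median log2 fold change was -0.27. Of all genes, 48% had a fold change below 0. The median log2 difference of the 49 genes was -0.48 among low hair libraries, where ATR WT 1 alone stood for its genotype. Among high hair libraries it was -0.11. This list also holds genes counted above as relatives: Nr4a2, Nr4a3, Klf2, Klf6, Klf10, Dusp2, Dusp5, Zfp36l1 and Zfp36l2. Ppp1r15a and the AP-1 gene Fosl2 are on it too. Several lists share genes in this way, so their counts are not separate. Socs3, a feedback inhibitor of cytokine signalling, had 37.0, 39.4 and 40.5 CPM in ATR mD/mD 1, 2 and 3, against 91.4, 69.5 and 53.6 CPM in ATR WT 1, 2 and 3. Its groups did not overlap, and its log2 fold change was -0.88 (SE 0.201). Ier3 had -0.72 (SE 0.194). The 6 measured AP-1 subunits had a median of -1.28, with Fosb at -2.42 (SE 0.398), Fos at -2.32 (SE 0.422) and Junb at -1.39 (SE 0.27). Of these 6, 0 passed the test (edgeR quasi-likelihood), while DESeq2 called 4. DESeq2 called 0 of the 49 other immediate early genes, and 0.269% of all genes. Earlier results of these data on these lists were known when they were drawn up.

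The transcripts of factors that drive immediate early genes had fold changes near 0. The activity of these proteins was not measured. Of 24 such upstream factors and kinases, 0 passed the test (edgeR quasi-likelihood), 14 were lower and 10 higher, and the median was -0.06. Srf was at 73.9 ± 2.30 CPM in ATR mD/mD and 85.9 ± 17.7 CPM in ATR WT (SD, n = 3), or -0.22 (SE 0.165) as log2 fold change, and Atf4 and Mapk14 had -0.21 (SE 0.191) and 0.12 (SE 0.118). Of 12 measured EGR corepressors and targets, 0 passed the test (edgeR quasi-likelihood) and 9 were lower, with a median of -0.18. Among them Icam1 had -0.34 (SE 0.129), Vegfa -0.36 (SE 0.182) and the corepressor gene Nab2 -0.27 (SE 0.193). Of 10 heat shock genes, 0 passed the test (edgeR quasi-likelihood) and 10 were lower, with a median of -0.12, where 48% of all genes were lower. Hsph1, Hspa1a and Bag3 had -0.31 (SE 0.193), -0.34 (SE 0.233) and -0.19 (SE 0.155). The median log2 difference of the heat shock genes was -0.29 among low hair libraries but 0.11 among high hair libraries.

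**Figure D2:**
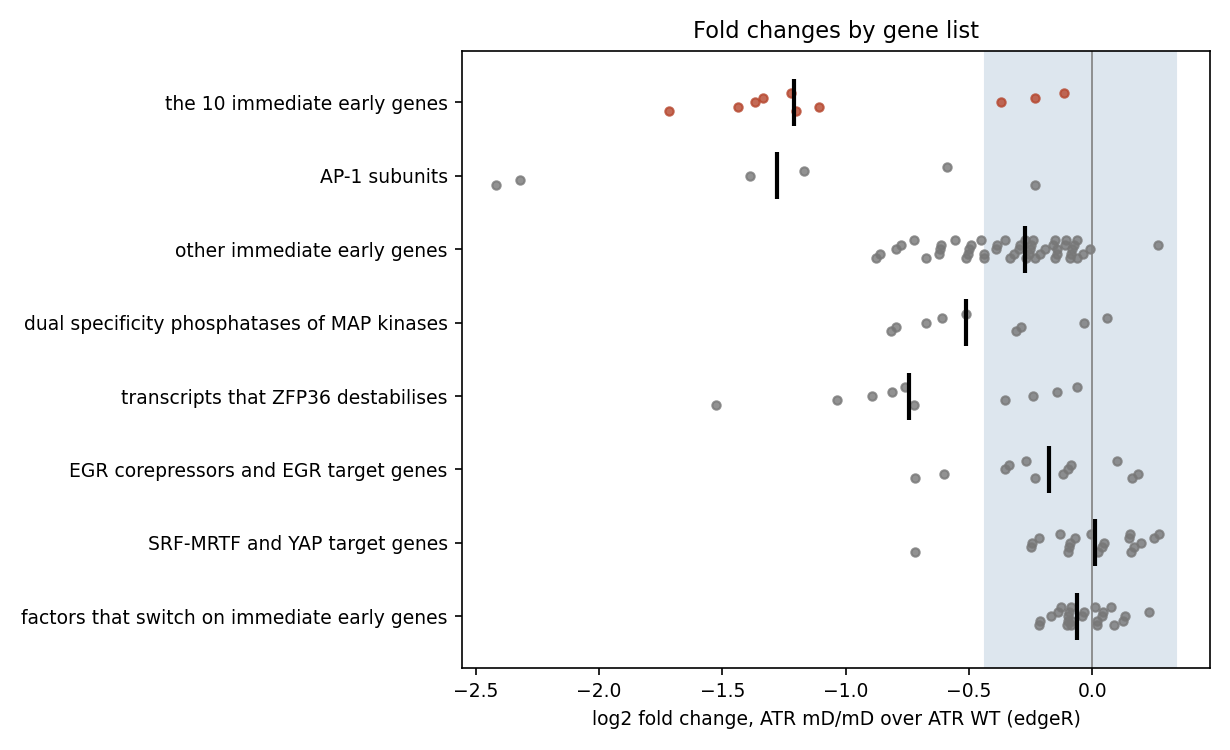
Fitted log2 fold change of ATR mD/mD over ATR WT (horizontal axis) for each gene (dot) of 8 lists, with list medians as vertical bars; the shaded band holds the middle of all 14484 genes, from the percentile 5 to the percentile 95. The 10 genes have a median of -1.21 and 7 lie left of the band, whose edges are -0.43 and 0.34, while upstream factors and SRF-MRTF and YAP targets centre near 0.

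The genotypes were then compared among libraries of like hair level, with no test because a hair class holds 1 library of one genotype. Among low hair libraries (ATR mD/mD 1 and 2 minus ATR WT 1), all 10 genes were lower, with a median log2 difference of -1.72. Among high hair libraries (ATR mD/mD 3 minus ATR WT 2 and 3), 8 of 10 were lower, with a median of -0.70. The shares of all genes that were lower were 49.0% and 52.0%. Dusp1, Zfp36, Cyr61 and Egr1 had -1.77, -1.70, -1.70 and -1.92 among low hair libraries and -1.45, -1.28, -1.16 and -1.06 among high hair libraries. Atf3, Nr4a1 and Ier2 had -2.75, -1.94 and -1.75 among low hair libraries, but -0.72, -0.68 and -0.37 among high hair libraries. Egr2 and Egr3 had -0.64 and -0.11 against 0.26 and 0.06, and Klf4 had -0.64 against -0.48.

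**Figure D3:**
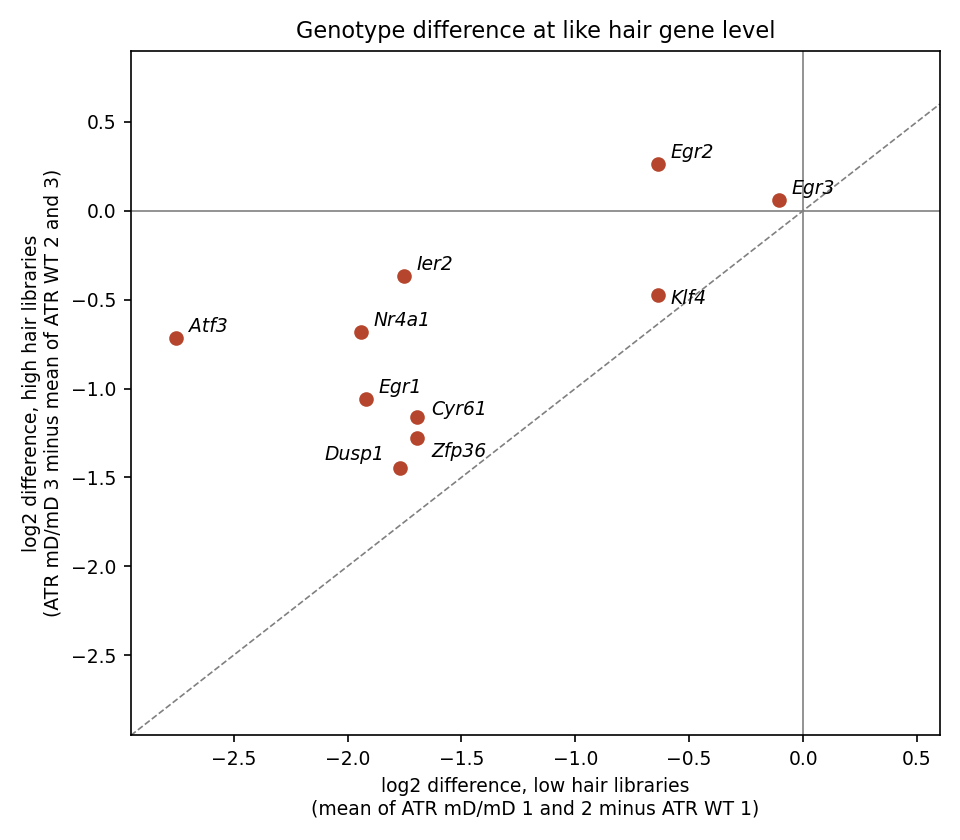
Difference of mean log2 CPM between genotypes among the 3 low hair libraries (horizontal axis) and among the 3 high hair libraries (vertical axis) for the 10 genes; the dashed line marks equal differences. Klf4, at -0.64 and -0.48, lies nearest the line, and Atf3, at -2.75 and -0.72, lies farthest above it.

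Within a genotype, hair level went with the genes unevenly. In ATR mD/mD, 5 of the 10 were higher in the low hair libraries than in the high hair library: Dusp1 (log2 difference 0.80), Cyr61 (0.59), Klf4 (0.53), Zfp36 (0.42) and Nr4a1 (0.22). Ier2 (-0.70), Egr2 (-0.56), Egr3 (-0.37), Atf3 (-0.18) and Egr1 (-0.14) were lower there. In ATR WT, 9 of the 10 were higher in the 1 low hair library, by 0.34 in Egr2 to 1.85 in Atf3, and Egr3 had -0.21. ATR WT 1 also had the highest muscle marker level and was the only ATR WT library with few Xist counts. Hair level, muscle content, Xist level and that library therefore cannot be told apart among the ATR WT libraries. With hair level as a covariate in the fit, all 10 fold changes stayed negative, Egr1 was at -1.50 and Dusp1 at -1.60, and 0 of 10 passed (edgeR quasi-likelihood, 0.0621% of all genes called). With muscle level as a covariate, Egr1 was at -1.39 and Dusp1 at -1.26, and again 0 of 10 passed (edgeR quasi-likelihood, 9 of all 14484 genes called).

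Libraries of like Xist level gave a further view. Among libraries with few Xist counts (ATR mD/mD 2 and 3 minus ATR WT 1), 9 of 10 genes were lower (all but Egr3, at 0.03), with a median log2 difference of -1.85. Among those with many (ATR mD/mD 1 minus ATR WT 2 and 3), 9 of 10 were lower (all but Klf4, at 0.03), with a median of -0.43. Of all genes, 47.8% and 50.4% were lower in these comparisons. Egr1, Zfp36, Ier2 and Dusp1 had -1.16, -1.02, -0.97 and -0.91 in this second set, and Nr4a1 and Atf3 had -0.30 and -0.29. In both splits, ATR WT 1 alone stood for its genotype on the side with the larger differences.

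The size of the differences rested in large part on ATR WT 1. Without it, the median log2 fold change of the 10 was -0.79, and the fold changes of Egr1, Zfp36, Atf3, Ier2 and Dusp1 were -1.15, -1.07, -0.90, -0.87 and -0.85. Leaving out any other library gave medians from -1.44 to -1.12. In all 6 fits with 1 library left out, all 10 fold changes were negative, although Egr3 reached -0.01 and Egr2 -0.04 without ATR mD/mD 2, and Egr3 also -0.01 without ATR WT 3. None of the 10 passed an adjusted p of 0.05 in any of these 6 fits (edgeR quasi-likelihood, 4 to 10 of all 14484 genes called).

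**Figure D4:**
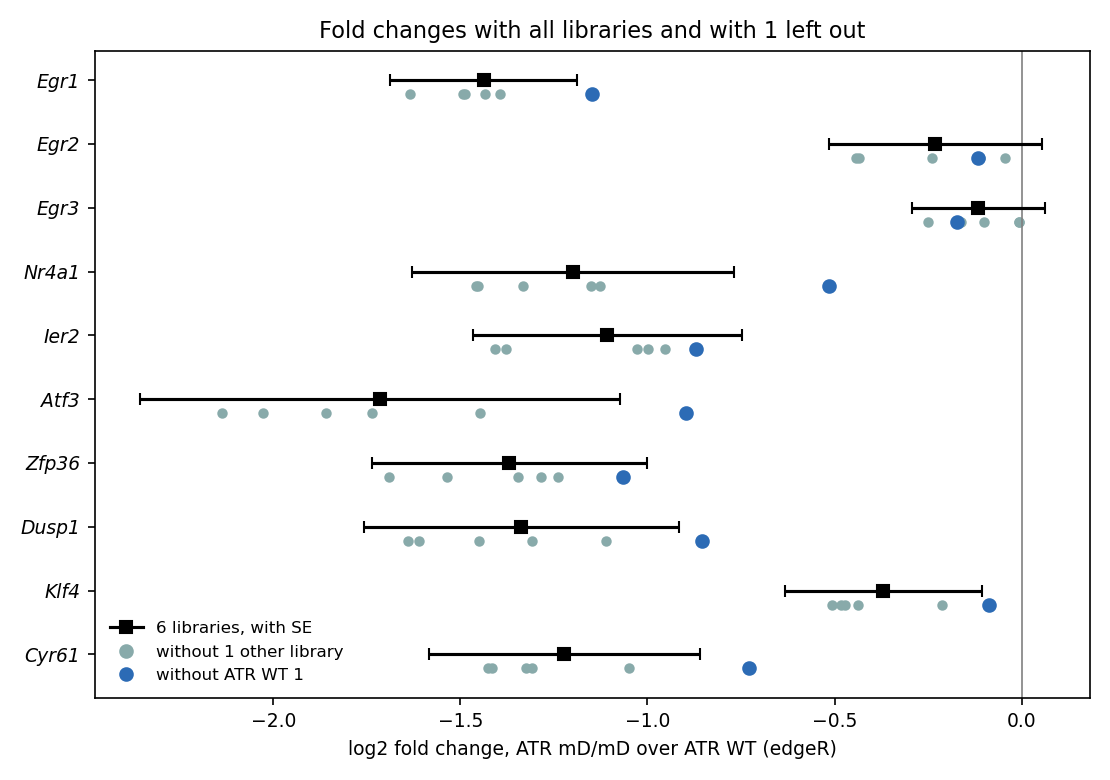
Log2 fold change of ATR mD/mD over ATR WT for the 10 genes with all 6 libraries (squares, bars are the SE) and with 1 library left out (dots, the one without ATR WT 1 in blue). Every dot lies left of 0, and the fit without ATR WT 1 lies closest to 0 in 8 of the 10 genes.

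The genes did not all share 1 pattern over the 6 libraries. As a description over 6 libraries that share depth and hair level differences, the correlation of log2 CPM with the mean of the 10 genes was 0.97 for Nr4a1, 0.97 for Cyr61 and 0.96 for Egr1, but 0.43 for Egr2 and 0.08 for Egr3. Each gene is itself part of that mean, so its correlation is partly with itself. The closest pair was Dusp1 and Cyr61 (Pearson r = 0.96), and Egr3 was closest to Egr2 (r = 0.75). Of 8 other genes nearest to the mean of the 10, Gpc1 (r = 0.99), Nme6 (0.98) and Btg2 (0.98) came first, followed by Tmem222, Cnot4, Fosb, Socs3 and Capzb (0.95 to 0.96). These 8 were picked as the highest among 11097 genes with a mean log2 CPM of at least 3, over only 6 libraries. Their high r therefore follows from the choice and is no evidence of shared control. Btg2 had 164, 159 and 132 CPM in ATR mD/mD 1, 2 and 3, against 406, 208 and 212 CPM in ATR WT 1, 2 and 3. Gpc1 had 124, 125 and 122 CPM in ATR mD/mD, against 161, 135 and 136 CPM in ATR WT, a difference of much smaller size.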

How the data were processed

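The series table deposited by the authors gives raw read counts, whole and not normalized, for each gene in each library, per the file headers. FastQC, TopHat2 2.0.12, edgeR and build mm10 are named in the submitters' processing notes. No source used here names the read counter or annotation. Columns of the authors' comparison in the deposited table hold log2 fold change, log2 CPM, p-value and q-value. Libraries were made from poly(A) RNA with a kit that does not mark strand, per the labels' protocols.

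Of 14486 rows, 2 name no gene (4.93% to 5.72% of a library's counts) and were left out. Counts were scaled with TMM and tested with edgeR 4.0.16 (quasi-likelihood, in R 4.3.3, filterByExpr, which kept all 14484 genes), with Benjamini-Hochberg adjustment over all genes. The SE is the absolute log2 fold change over the square root of F. CPM values are TMM-scaled, RPKM divides them by the exon length in GENCODE M21, and log2 CPM uses a prior count of 2. Libraries within a group differed beyond sampling noise (chi-square per degree of freedom of at least 55.3). Alternatives were RLE factors, 2 filters, DESeq2 1.42.0, limma-voom 3.58.1, edgeR's exact test, a replicate block, hair and muscle covariates, and leaving out each library. Unscaled libraries and the comparison of libraries of like Xist level were added after the data were seen. The members and gene lists were chosen with earlier results of these data known. Named genes were the members, Atr, Braf, the 3 genes of smallest p in each list and the 8 genes nearest to the members' mean. Per1 and the count ratios were chosen with their values known.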

Additional observations from a re-analysis of the deposited data

How the results depend on the processing

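Against 7 genes called in all (0 of the 10), DESeq2 called 39 genes (33 lower, 6 higher) and edgeR's exact test 25 (23 lower, 2 higher), each with 1 of the 10, Egr1. With 1 library left out, the number of genes called ran from 4 (without ATR mD/mD 1, ATR WT 2 or ATR WT 3) to 10 (without ATR WT 1), the number of the 10 called stayed at 0 (edgeR quasi-likelihood), and their median log2 fold change ran from -1.44 to -0.79, the smallest change being that without ATR WT 1. The cause was not tested. RLE factors, limma-voom, the covariates, unscaled libraries and thresholds of 0.1 and 0.01 left the calls of all 10 genes and the sign of each fold change as they were. The 2 filter settings removed no gene (14484 left), so they gave the same fit and tested nothing. With the replicate number as a block, 6 genes passed, 0 of the 10 passed and their median was -1.11. The deviations of same-numbered libraries correlated at 0.63, -0.51 and 0.57 for numbers 1, 2 and 3. ATR mD/mD 2 correlated best with ATR WT 1. Hair level divided both groups and deviations within a group sum to 0, so these values cannot show whether the numbers mark pairs. Each of the 10 genes had at least 998 counts in every library.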
